A study of Homo sapiens with 9 samples.

Results

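The 31 genes described here encode the enzymes of glycolysis from hexokinase to pyruvate kinase, both lactate dehydrogenase subunits, a pair of lactate transporters and 6 pentose phosphate enzymes. They were taken by name, in pathway order, and all 31 were found among the 19317 genes of the expression table. Expression was measured by RNA sequencing in HepG2, an established line of human hepatocellular carcinoma cells, in 3 groups of 3 samples that all carry the genotype label WT. The control group, also called WT, was kept in RPMI (catalogue code R2405). The DNL group, named for de novo lipogenesis, was kept in DMEM (D0819) with 10 µg/ml insulin and 10 µM of the liver X receptor agonist T0901317 over 1 week. The OA group received the same DMEM with 25 µM oleic acid, which had been dissolved in PBS with 11% bovine serum albumin, over 6 hours. All 3 media held 10% serum and 1% antibiotics. Medium, added compounds and duration differ together between the groups, no sample received the albumin alone, and the labels give no glucose content for either medium, so none of these can be told apart. Groups were read from each sample's title and its own treatment label, because the shared treatment protocol describes the DNL recipe whatever the group. Whether the 3 samples of a group came from separate cultures is not labelled, and the p-values therefore reflect only sample-to-sample spread, which could be technical.

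Glycolysis splits glucose into pyruvate. Its upper part spends ATP to make fructose bisphosphate, which aldolase cleaves, and its lower part regains ATP from the triose phosphates. Lactate dehydrogenase returns pyruvate to lactate, and the monocarboxylate transporters carry lactate across the plasma membrane. The pentose phosphate pathway branches off at glucose phosphate, gives NADPH for lipid synthesis and makes ribose phosphate. Most steps have several isozymes. Normal hepatocytes rely on liver forms such as PFKL and PKLR, while hepatocellular carcinoma cells are known for HK2, PKM and LDHA. Several glycolytic genes are known targets of hypoxia-inducible factors, and PKLR is a known target of the carbohydrate response factor ChREBP.

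Library totals ranged from 26425694 to 43043347 estimated counts for WT, from 16447398 to 36147431 for DNL and from 7836520 to 28636903 for OA. The 31 genes together took 0.633% ± 0.00523 of all counts in WT, 0.95% ± 0.0136 in DNL and 0.71% ± 0.00291 in OA (SD, n = 3, as for every mean below). Levels below are CPM, counts relative to library size after TMM scaling, which sets libraries to a common level over most genes. Hepatocyte markers were present in all libraries, and their summed level over 10 genes was 43703 to 45341 CPM in WT, 77555 to 79675 in DNL and 14311 to 16321 in OA. The OA libraries stood apart in fibroblast markers. COL1A1, a chain of type I collagen, was at 19.3, 85.00 and 537 CPM in OA replicates 1, 2 and 3, and under 1 CPM in each WT and DNL library. Its partner COL1A2 was at 10.2, 41.1 and 259.6 CPM in OA and at 0 in every WT and DNL library. Summed over the 4 fibroblast markers (COL1A1, COL1A2, DCN and LUM), levels were 2.0 to 3.25 CPM in WT, 2.06 to 2.26 in DNL and 31.8 to 801 in OA. The 4 cholangiocyte markers summed to 459 to 475 CPM in WT, 844 to 954 in DNL and 802 to 955 in OA. Of these, 3 were higher in DNL than in WT, and in OA 2 were higher and 1 lower, with KRT7 at 0.474, 1.48 and 8.19 CPM in OA and at 0 elsewhere. The 4 leukocyte markers summed to 979 to 989.6 CPM in WT, 1618 to 1712 in DNL and 1057 to 1092 in OA, and the 3 endothelial markers to 1.52 to 1.963, 5.27 to 6.92 and 0.923 to 2.02, with CDH5 at 0 in OA. These values move with the DNL and OA labels, and their part in the results was not tested. OA replicate 3 was also the shallowest library, so results that change without it are given with and without it. In bulk RNA, fewer cells of a type and less RNA per cell cannot be told apart.

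Promoter sequences of these genes are shown for 5 members, since the genes below include many known targets of factors that read short motifs. The motifs searched were ACGTG and GCGTG, the core of sites for hypoxia-inducible factors, and CACGTG, the palindrome read by ChREBP and other factors, which contains ACGTG on both strands. RefSeq windows (GRCh38.p14) of the 250 bases before a transcription start were found for 29 of the 31 genes, PFKFB2 and SLC16A1 being the others, and many genes had more than 1 window, 57 in all. ACGTG or GCGTG occurred on either strand in 29 of these 57 windows (50.9%), against 43.2% of 35116 windows of all genes. Taking the first window of each gene, 16 of 28 tested members held a match (57.1%), against 55.8% of 11027 tested genes. The motifs taken apart differed in both directions: ACGTG was in 10 of the 28 (35.7%) against 22.7% of tested genes, CACGTG in 4 (14.3%) against 8.66%, and GCGTG in 10 (35.7%) against 44.1%. The stretches below run 5′ to 3′ on the gene's strand, leave out bases that GENCODE release 29 annotates as exons, and carry motif matches in capitals. A match is a description of these letters and says nothing about binding in these cells. HK2, hexokinase 2, had 6 matches in 4 runs, including a pair of CACGTG palindromes, in the window of its second listed start (chr2:74834920-74835169, plus strand):
HK2: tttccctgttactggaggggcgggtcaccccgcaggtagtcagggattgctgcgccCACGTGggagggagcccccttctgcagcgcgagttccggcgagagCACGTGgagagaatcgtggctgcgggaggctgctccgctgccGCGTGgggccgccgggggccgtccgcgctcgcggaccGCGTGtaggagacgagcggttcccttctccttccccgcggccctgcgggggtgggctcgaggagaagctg
PGK1, phosphoglycerate kinase 1, had 3 matches close together (chrX:78103998-78104173, plus strand):
PGK1: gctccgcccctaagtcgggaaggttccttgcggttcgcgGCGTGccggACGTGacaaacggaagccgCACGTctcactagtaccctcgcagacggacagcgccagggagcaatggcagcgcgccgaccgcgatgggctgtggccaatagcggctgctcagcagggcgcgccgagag
LDHA, the lactate dehydrogenase subunit that favours lactate, had 5 matches with 2 CACGTG palindromes in the window of its first listed start. The window of its second start held 1 match. The stretch shown covers only bases 250 to 176 before the first start and holds 1 of the palindromes (chr11:18394313-18394387, plus strand):
LDHA: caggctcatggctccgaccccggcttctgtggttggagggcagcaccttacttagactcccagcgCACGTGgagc
PFKFB4 is the member of its family with the highest level in DNL, and its stretch held 1 match (chr3:48556924-48556982, minus strand):
PFKFB4: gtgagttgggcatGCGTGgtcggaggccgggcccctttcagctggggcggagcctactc
PFKP, the platelet form of phosphofructokinase 1, was lower in DNL than in WT. Of its 4 windows, 2 held no match, 1 held 3 GCGTG matches, and the one shown held 1 ACGTG match (chr10:3068939-3069188, plus strand):
PFKP: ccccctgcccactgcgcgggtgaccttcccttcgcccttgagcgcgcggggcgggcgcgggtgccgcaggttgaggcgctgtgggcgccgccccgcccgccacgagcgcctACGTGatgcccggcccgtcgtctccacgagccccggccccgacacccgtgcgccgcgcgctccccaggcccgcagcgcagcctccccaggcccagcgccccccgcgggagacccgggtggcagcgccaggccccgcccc

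DNL against WT asks what the lipogenic medium changed in these genes. Of the 31 genes, 30 passed the filter on low counts and were tested, and LDHB did not pass. Of the 30, 22 were higher in DNL, 4 were lower and 4 were not called by edgeR's quasi-likelihood test at an adjusted p under 0.05. These calls make up 86.7% of the tested members, and the share called over all 13636 genes tested was 53.8% (27.1% higher and 26.8% lower). The median log2 fold change was 0.73 over the members and -0.02 over all genes tested. A change of at least 2-fold was called for 9 higher members and 1 lower member, PFKP, against 12.3% of all genes in either direction. The 3 values of DNL and those of WT did not overlap for 27 of the 30 members, against 64.7% of all genes. The lower calls were PFKP, SLC16A3, RPIA and TALDO1. The uncalled genes were ENO3, SLC16A1, PGLS and TKT. Scaling by library totals lowered the median of all genes to -0.18 on the log2 scale, with 32.2% of calls higher against 50.3% under the scaling used here, and the members' median was then 0.56.

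OA against WT asks the same of the oleic acid treatment. It gave 13 higher members, 7 lower and 10 not called. The share called was 66.7% of the 30, against 60% of all genes tested (30.4% higher and 29.7% lower). The median log2 fold change was 0.08 over the members and -0.03 over all genes. A change of at least 2-fold was called for 4 higher members (HK1, PFKFB3, PFKFB4 and ALDOC) and 1 lower member (PKLR). These 5 of 30 were a share near that of all genes, 16.8% in either direction. Values of OA and WT did not overlap for 21 of the 30 members, against 65.7% of all genes. The lower calls were HK2, PFKL, ENO3, PKLR, LDHA, SLC16A1 and SLC16A3. Scaling by library totals moved the median of all genes from -0.03 to 0.04 on the log2 scale, and the higher share of calls from 50.5% to 56.5%. The members' median was then 0.14. Library totals gave 17 higher and 6 lower members, with TPI1, PGK1, ENO1 and ENO2 then called higher (adjusted p = 0.00782, 0.0197, 0.034 and 0.0187) and SLC16A1 no longer called, and DESeq2 also called TPI1 and ENO2 (0.0498 and 0.0483). Without OA replicate 3, 13 members were higher and 8 lower: the call of TKT was lost (adjusted p = 0.0678), and ENO2 and PGLS were called.

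DNL and OA share their WT samples in those comparisons, so the direct test between them carries the difference. Of the 30 members, 20 were higher in DNL than in OA, 4 were lower (HK1, PFKP, TKT and TALDO1) and 6 were not called. The share called was 80%, against 62.8% of all genes (31.9% higher in DNL and 30.9% lower). A difference of at least 2-fold was called for 7 higher and 2 lower members, against 20.1% of all genes in either direction, and values did not overlap for 22 members, against 66.2% of all genes. PFKP (-2.31 on the log2 scale, adjusted p = 2.08e-09), PKLR (2.27, adjusted p = 6.33e-09), ALDOC (1.90), PFKFB4 (1.79) and LDHA (1.60, adjusted p = 2.81e-12) differed most. The median log2 difference was 0.54 over the members and 0.01 over all genes. Library totals brought the median of all genes to -0.22, the higher share of calls from 50.8% to 33.9%, and the members to 16 higher and 8 lower. Without OA replicate 3, TKT and TALDO1 lost their calls (adjusted p = 0.0672 and 0.0529) and 2 members, HK1 and PFKP, stayed lower.

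**Figure D1:**
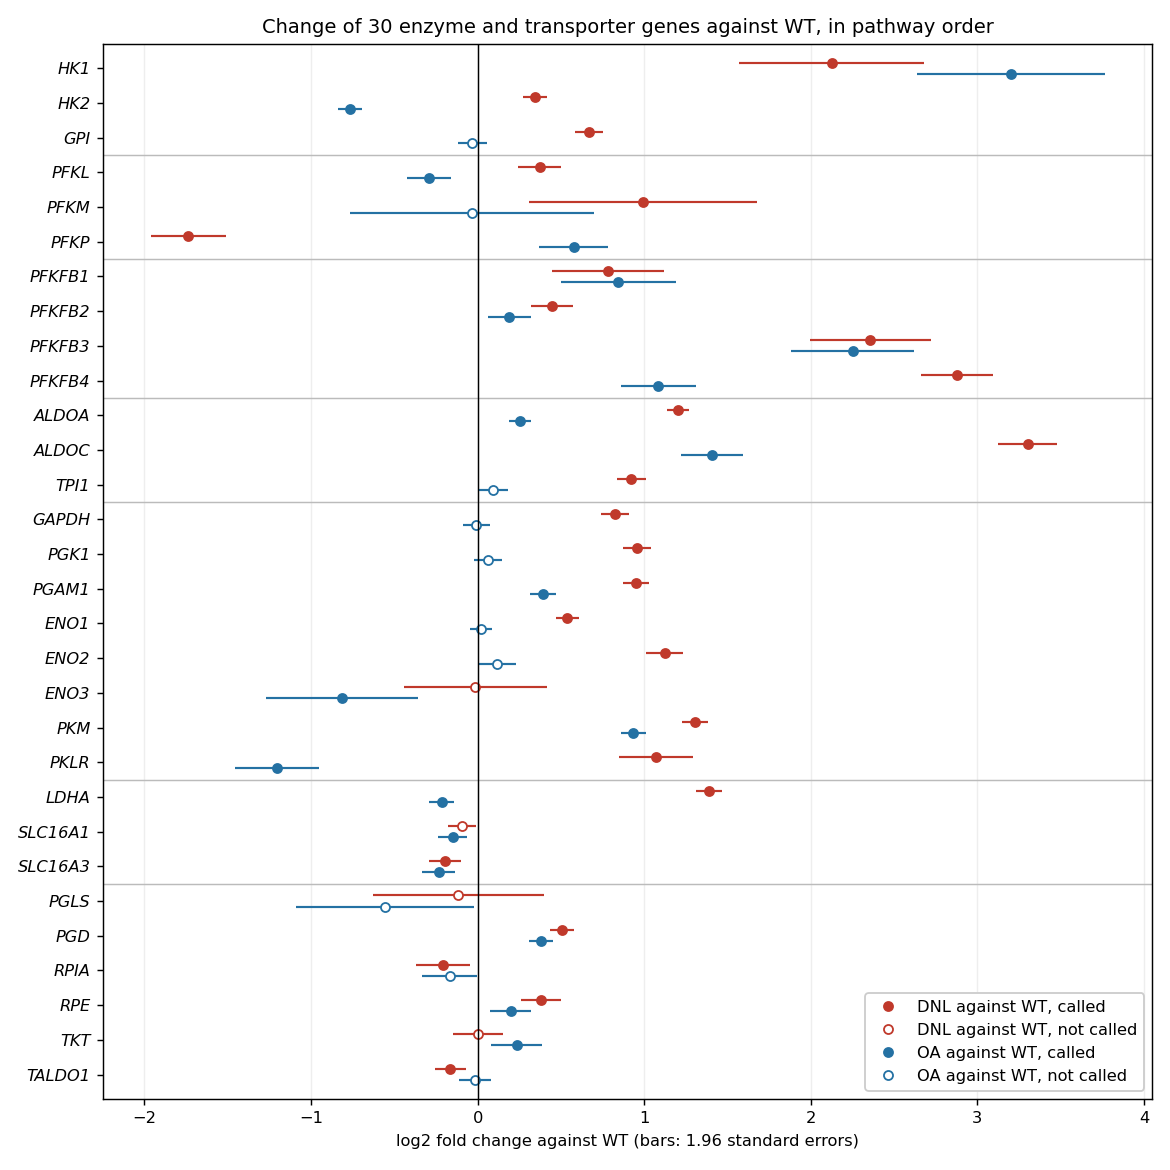
Log2 fold change of 30 genes against WT (x axis), in pathway order from top to bottom (y axis), for DNL (red) and OA (blue); filled points were called at an adjusted p under 0.05, open points were not, and bars are normal 95% intervals. In DNL 22 points are called to the right of 0 and 4 to the left, while in OA 13 are called to the right and 7 to the left.

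A list of 12 hypoxia targets outside glycolysis was chosen with earlier results of these data known, so its counts are a description and not a separate test. All 12 were higher in DNL than in WT, against the 27.1% of all genes given above. Their summed level was 732 to 753 CPM in WT, 1724 to 1853 in DNL and 791 to 826 in OA. In OA against WT, 8 of the 12 were higher and 4 lower, against 30.4% and 29.7% of all genes, and in DNL against OA 9 were higher and 0 lower, against 31.9% and 30.9%. NDRG1, a stress-responsive gene, rose from 23.4 ± 0.919 to 184 ± 12.1 CPM in DNL and to 127 ± 8.68 in OA. BNIP3L, a mitophagy receptor, rose 4-fold in DNL. P4HA1, a collagen prolyl hydroxylase subunit, fell by 0.63 on the log2 scale in OA, and BNIP3 fell by 0.61. Over the 12 genes, log2 fold changes against WT ran from -4.00 to 2.44 in OA and from 0.41 to 8.11 in DNL. Oxygen was not a labelled variable, and the part of this list in the members' result was not tested.

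Per unit of transcript length, the members spanned a wide range. TPM values (reads per length, scaled to a common total), computed here from counts and the median length of each gene's protein-coding transcripts, put GAPDH first in every group. In WT, GAPDH was at 2342 ± 55.5 TPM, ENO1 at 1376 ± 20.2 and ALDOA at 899 ± 11.9. SLC16A3 (435 ± 16.7), PKM (398 ± 16.8) and LDHA (388 ± 18.8) followed, and PKM and LDHA did not differ beyond their spread. At the other end were HK1 at 0.533 ± 0.117, PFKM at 1.33 ± 0.512 and LDHB at 0 TPM. In DNL the order near the top was GAPDH at 3634 ± 82.5, ALDOA at 1817 ± 43.6, ENO1 at 1753 ± 68.96, LDHA at 889.6 ± 58.7 and PKM at 862 ± 9.28 TPM. ALDOA and ENO1, and likewise LDHA and PKM, lay within each other's spread there by median length. In OA, PKM stood at 788 ± 9.07 and LDHA at 346 ± 7.03 TPM, well apart. With the longest transcript of each gene in place of the median, SLC16A3 came to 248 TPM in WT, below PKM at 449. In DNL, PKM was then at 956 and LDHA at 882, so the order within both of these pairs depends on the length used. ALDOA stayed above ENO1 in DNL with either length, by a wider gap with the longest transcripts (2209 against 1747).

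**Figure D2:**
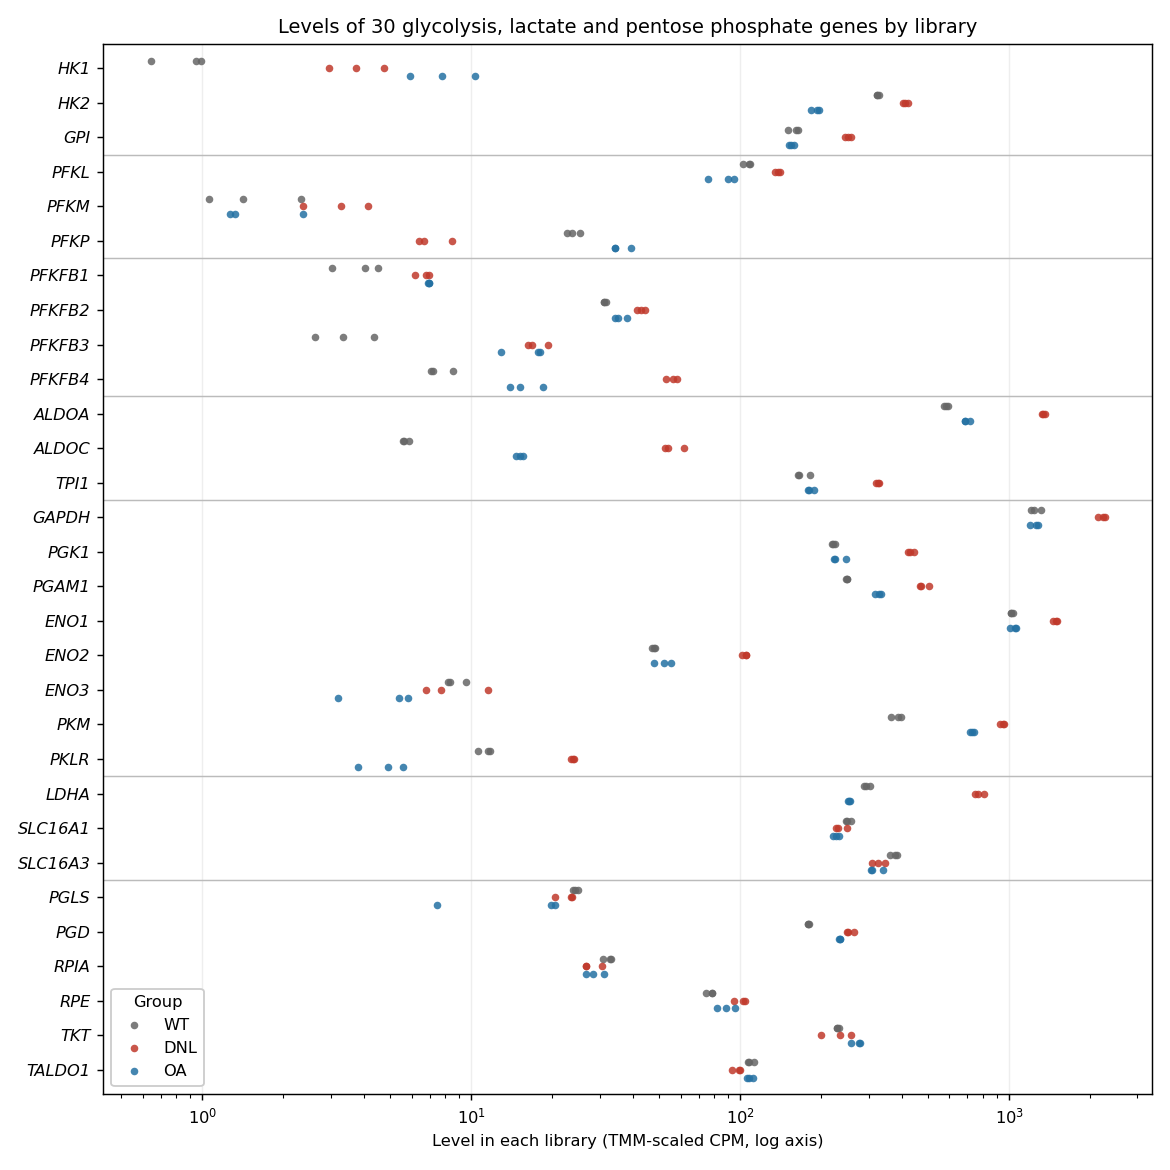
Level of 30 genes in each library (x axis, TMM-scaled CPM, log axis) in pathway order (y axis), with 3 points per group: WT grey, DNL red, OA blue; grey lines separate pathway stages. DNL points lie right of both other groups for most genes from ALDOA to LDHA, PFKP has its DNL points at the left, and HK1 has its OA points at the right. LDHB is left out because it is at 0 in 7 libraries.

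Hexokinases trap glucose in the cell as glucose phosphate, and glucose phosphate isomerase (GPI) turns it into fructose phosphate. All 3 genes of this stage were higher in DNL than in WT, against 27.1% of all genes, and the hexokinases went opposite ways in OA. HK2, the inducible form common in tumours (chromosome 2, 74833981 to 74893359, in GRCh38), was at 322, 328 and 324 CPM in WT, 421, 404 and 410.3 in DNL and 183, 196 and 193 in OA. The 3 groups did not overlap, with DNL above WT and OA below. HK2 rose 1.27-fold in DNL (log2 fold change 0.34, SE 0.0369, adjusted p = 4.98e-06) and fell in OA (log2 fold change -0.77, SE 0.0379, adjusted p = 2.82e-09). HK1, the widespread form (chromosome 10, 69269984 to 69401884), was at 0.944, 0.643 and 0.988 CPM in WT, 3.73, 4.72 and 2.95 in DNL and 5.92, 7.81 and 10.3 in OA. It was low in every library, and the groups did not overlap. HK1 rose 4.36-fold in DNL (adjusted p = 3.39e-05) and 9.2-fold in OA (log2 fold change 3.20, SE 0.287, adjusted p = 7.23e-07). Its order among the OA libraries was that of COL1A1, whose part in this result was not tested, and without OA replicate 3 its log2 fold change in OA was 3.0 (adjusted p = 1.48e-06). GPI rose from 158 ± 7.22 to 252 ± 7.14 CPM in DNL (adjusted p = 4.72e-08) and was at 155 ± 3.31 in OA (adjusted p = 0.551).

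Shares of isozymes within a library do not depend on how libraries are scaled. For 11 pairs of isozymes or paired transporters, the log2 ratio of counts was compared over the 3 groups by an exact permutation test over all 1680 regroupings of the 9 samples, two-sided by construction, with Benjamini-Hochberg adjustment over the 11 ratios. The smallest p this test allows is 0.00357, and groups taken in pairs, 3 against 3, could not go below 0.10, so differences between pairs of groups are given as values. The log2 ratio of HK2 to HK1 was 8.56 in WT, 6.78 in DNL and 4.60 in OA (adjusted p = 0.00786, exact permutation). HK2 stayed far above HK1, which made up 0.378% ± 0.0867 of the 2 genes' TPM in WT, 1.31% ± 0.317 in DNL and 5.66% ± 1.36 in OA. HKDC1, a hexokinase-like gene outside the 31, was below HK2 in WT (70.3 ± 1.19 against 141 ± 4.37 TPM) and in DNL (45.4 ± 1.14 against 157 ± 3.49), and above it in OA (123 ± 9.72 against 85.8 ± 2.7).

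Phosphofructokinase 1 commits fructose phosphate to glycolysis, and its liver (PFKL), muscle (PFKM) and platelet (PFKP) subunits responded differently. Of the 30 tested members, PFKP had the largest fall in DNL. PFKP (chromosome 10, 3066333 to 3137712) was at 25.3, 23.8 and 22.8 CPM in WT, 6.41, 6.65 and 8.48 in DNL and 34.2, 34.2 and 39.3 in OA. DNL lay below WT and OA above it, with no overlap. PFKP fell to 0.3 of its WT level in DNL (log2 fold change -1.74, SE 0.114, adjusted p = 5.02e-08) and rose 1.49-fold in OA (log2 fold change 0.58, SE 0.106, adjusted p = 0.00039). Without OA replicate 3, its rise in OA was 0.51 on the log2 scale (adjusted p = 0.00178). PFKL was at 108, 103 and 109 CPM in WT, 134, 141 and 139 in DNL and 94.4, 89.7 and 76.00 in OA, again without overlap. It rose by 0.37 on the log2 scale in DNL (adjusted p = 0.000344) and changed by -0.29 in OA (adjusted p = 0.00231). PFKM was scarce, at 2.32, 1.42 and 1.06 CPM in WT, 3.26, 4.12 and 2.37 in DNL and 1.26, 1.32 and 2.38 in OA. Its call as higher in DNL (log2 fold change 0.99, adjusted p = 0.0294) was lost without DNL replicate 1 or 2 or WT replicate 2 or 3 (adjusted p = 0.068, 0.103, 0.0905 and 0.11) and under library totals (0.0569). PFKM was also called higher in DNL than in OA (2.03-fold, adjusted p = 0.0293), although their values met at 2.37 and 2.38 CPM, and this call was lost in 5 of the 16 alternatives in which PFKM was tested.

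The make-up of phosphofructokinase 1 therefore differed between the groups. The log2 ratio of PFKP to PFKL was -2.15 in WT, -4.27 in DNL and -1.27 in OA (adjusted p = 0.00786, exact permutation). By TPM, PFKP made up 11.3% ± 0.59 of the family in WT, 2.86% ± 0.426 in DNL and 19.2% ± 3 in OA. The size of this share depends on the transcript length used, and with the longest transcripts it was 18.9%, 5.09% and 30.1%. The ratio of PFKM to PFKL did not pass the same test (adjusted p = 0.357).

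**Figure D3:**
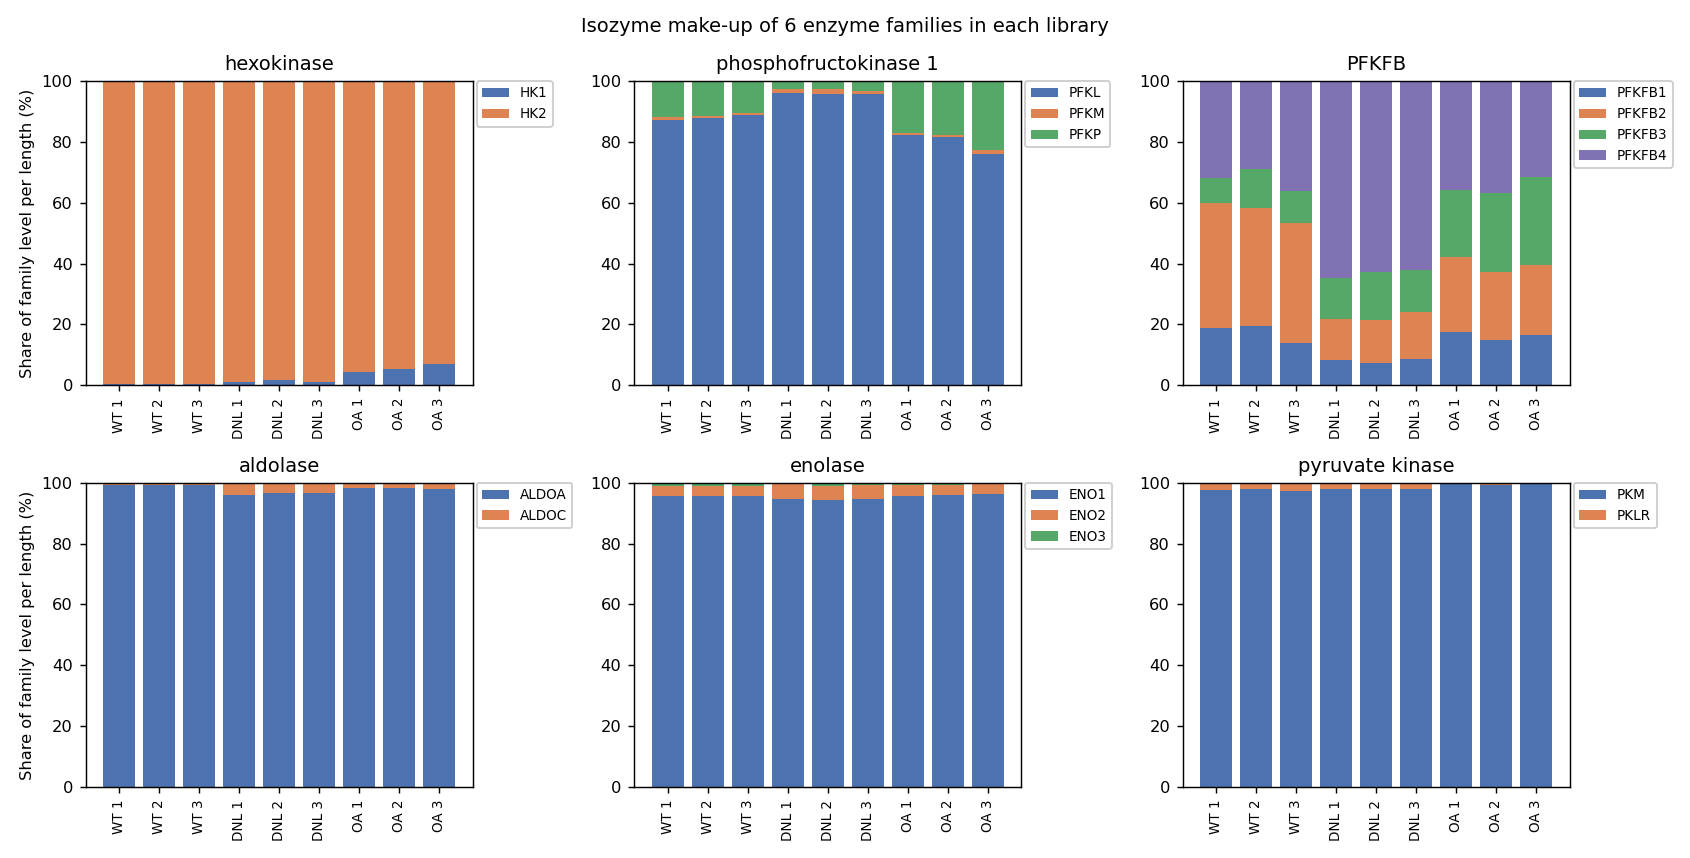
Share of each isozyme in its family's TPM (y axis, %) in each of the 9 libraries (x axis), for 6 enzyme families as far as their genes are among the 31; each bar sums to 100%. PFKP takes 2.6% to 3.35% of phosphofructokinase 1 in DNL against 17.1% to 22.6% in OA, and PFKFB4 takes 62.2% to 64.6% of its family in DNL against 29.1% to 36.3% in WT.

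The PFKFB enzymes make and remove the fructose bisphosphate isomer that activates phosphofructokinase 1, and thereby set the pace of glycolysis. All 4 genes were higher than WT in DNL and in OA, against 27.1% and 30.4% of all genes. PFKFB4, known from testis and tumours, rose most in DNL. PFKFB4 (chromosome 3, 48517684 to 48562015) was at 7.23, 7.11 and 8.52 CPM in WT, 58.1, 56.4 and 53.1 in DNL and 15.2, 18.4 and 13.9 in OA. The DNL values were far above both other groups, and OA lay between. The change was 7.35-fold in DNL (log2 fold change 2.88, SE 0.111, adjusted p = 3.43e-10) and 2.12-fold in OA (log2 fold change 1.09, SE 0.115, adjusted p = 3.31e-06). PFKFB3, the inducible form with strong kinase activity, was at 2.62, 4.33 and 3.33 CPM in WT, 16.8, 19.4 and 16.3 in DNL and 12.9, 17.96 and 17.7 in OA. Both treated groups lay above WT and overlapped each other. PFKFB3 rose 5.12-fold in DNL (adjusted p = 2.91e-07) and 4.76-fold in OA (adjusted p = 3.97e-07), and the difference between DNL and OA was 0.11 on the log2 scale (95% interval -0.23 to 0.44, adjusted p = 0.62). PFKFB1, the liver form, rose from 3.86 ± 0.748 to 6.64 ± 0.403 CPM in DNL (adjusted p = 0.00182) and to 6.94 ± 0.049 in OA (adjusted p = 0.00101). PFKFB2, the heart form, rose from 31.4 ± 0.297 to 42.8 ± 1.61 CPM in DNL (adjusted p = 7.42e-05). Its smaller rise in OA, to 35.7 ± 1.995 CPM (adjusted p = 0.0255), was lost with no filter on low counts (adjusted p = 0.0557) and without OA replicate 2 or any 1 of the 3 WT replicates (adjusted p = 0.141, 0.0632, 0.0588 and 0.0758).

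Within the family, PFKFB2 led in WT and PFKFB4 in DNL. By TPM, PFKFB2 made up 39.7% ± 1.16 in WT and 14.4% ± 0.953 in DNL, and PFKFB4 32.4% ± 3.63 and 63.2% ± 1.24. With the longest transcripts, PFKFB4 came to 22.9% and 53.8%. In OA the 4 genes were closer to each other, with PFKFB4 at 34.7% ± 2.8, PFKFB3 at 25.6% ± 3.46, PFKFB2 at 23.4% ± 1.13 and PFKFB1 at 16.4% ± 1.35. With the longest transcripts the OA order changed, and PFKFB2 led at 30.3% over PFKFB4 at 26.5%. The log2 ratio of PFKFB3 to PFKFB2 was 1.92 higher in DNL and 2.07 higher in OA than in WT (adjusted p = 0.0196, exact permutation). The log2 ratio of PFKFB4 to PFKFB3 was 1.17 in WT, 1.68 in DNL and -0.03 in OA (adjusted p = 0.00786), and without OA replicate 3 this call was lost (adjusted p = 0.054).

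Aldolase cleaves fructose bisphosphate and triose phosphate isomerase (TPI1) interconverts the products. All 3 genes of this stage rose in DNL, against 27.1% of all genes. ALDOC, the brain form of aldolase, had the largest fold change of the 30 members in DNL. ALDOC (chromosome 17, 28573115 to 28577264) was at 5.87, 5.55 and 5.63 CPM in WT, 61.9, 52.7 and 53.9 in DNL and 14.7, 15.1 and 15.6 in OA. The groups did not overlap, and the WT values lay close to each other. ALDOC rose 9.87-fold in DNL (log2 fold change 3.30, SE 0.0904, adjusted p = 1.41e-11) and 2.65-fold in OA (log2 fold change 1.41, SE 0.0939, adjusted p = 4.63e-08). ALDOA, the main aldolase of these cells, was at 591, 573 and 580.2 CPM in WT, 1341, 1358 and 1324 in DNL and 685, 713 and 685 in OA. It rose 2.31-fold in DNL (adjusted p = 1.75e-11) and 1.19-fold in OA (adjusted p = 2.38e-05), and OA did not overlap WT. TPI1 rose 1.9-fold in DNL, from 171 ± 9.98 to 324 ± 4.51 CPM (adjusted p = 3.39e-09), and was at 182 ± 5.43 in OA (adjusted p = 0.107). ALDOA remained the main form, since ALDOC made up only 0.873% ± 0.0112 of their TPM in WT, 3.63% ± 0.316 in DNL and 1.92% ± 0.069 in OA. Their log2 ratio was 2.09 higher in DNL and 1.16 higher in OA than in WT (adjusted p = 0.00786, exact permutation).

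The lower part of glycolysis, from glyceraldehyde phosphate dehydrogenase (GAPDH) to pyruvate kinase, was higher in DNL than in WT for 7 of 8 genes (87.5%, against 27.1% of all genes). In OA, 2 were higher (PGAM1 and PKM), 2 lower (ENO3 and PKLR) and 4 were not called (GAPDH, PGK1, ENO1 and ENO2), of which all but GAPDH were called higher under library totals. The higher and lower shares in OA were 25% each, near the 30.4% and 29.7% of all genes. All 8 were higher in DNL than in OA, against 31.9% of all genes. GAPDH, a gene often used as a reference in expression assays, was at 1314, 1204 and 1232 CPM in WT, 2234, 2267 and 2138 in DNL and 1199.6, 1279 and 1255 in OA. It rose 1.77-fold in DNL (log2 fold change 0.82, SE 0.0428, adjusted p = 5.28e-09), while WT and OA overlapped (log2 fold change -0.01, 95% interval -0.09 to 0.08, with a sign that turns under other scalings). PGK1, phosphoglycerate kinase 1, part of whose promoter window is shown above, rose 1.94-fold in DNL, from 222 ± 3.28 to 430.5 ± 11.4 CPM (adjusted p = 1.37e-09), and was at 232 ± 12.8 in OA (adjusted p = 0.24). PGAM1, phosphoglycerate mutase 1, rose from 248 ± 0.614 to 479.9 ± 21.5 CPM in DNL (adjusted p = 6.97e-10) and to 326 ± 8.002 in OA (adjusted p = 2.16e-06). The DNL values of these 3 genes lay above every WT and OA value.

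Enolase makes phosphoenolpyruvate. ENO1, its widespread form, rose 1.45-fold in DNL, from 1023 ± 11.6 to 1486 ± 26.6 CPM (adjusted p = 3.51e-08), and was at 1039 ± 27.4 in OA (adjusted p = 0.6). ENO2, the neuronal form, was at 48.2, 47.2 and 47.95 CPM in WT, 105, 101 and 105 in DNL and 55.3, 51.9 and 47.9 in OA. It rose 2.18-fold in DNL (adjusted p = 4.16e-09), and WT and OA overlapped (adjusted p = 0.104). Without OA replicate 3, ENO2 was called higher in OA by 0.16 on the log2 scale (adjusted p = 0.0296). ENO3, the muscle form, was at 9.55, 8.16 and 8.34 CPM in WT, 6.81, 11.6 and 7.73 in DNL and 5.37, 5.8 and 3.21 in OA. It was lower in OA than in WT (log2 fold change -0.81, adjusted p = 0.00856), while DNL and WT overlapped (adjusted p = 0.962). The log2 ratio of ENO2 to ENO1 was 0.58 higher in DNL than in WT and 0.09 higher in OA (adjusted p = 0.0196, exact permutation), and the lowest share of ENO1 in the family's TPM in any library was 94.3%, or 93.5% with the longest transcripts. The ratio of ENO3 to ENO1 did not pass (adjusted p = 0.105).

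Pyruvate kinase closes the pathway, and its muscle-type (PKM) and liver-type (PKLR) genes parted in OA. PKM (chromosome 15, 72199029 to 72231822) was at 385, 395 and 364 CPM in WT, 958, 947 and 924 in DNL and 717, 741 and 728 in OA. Both treated groups lay above WT, and DNL above OA. PKM rose 2.47-fold in DNL (log2 fold change 1.31, SE 0.0386, adjusted p = 2.89e-11) and 1.91-fold in OA (log2 fold change 0.93, SE 0.0385, adjusted p = 5.64e-10). PKLR (chromosome 1, 155289293 to 155301438) was at 11.6, 10.6 and 11.8 CPM in WT, 23.9, 24.02 and 23.4 in DNL and 4.9, 5.57 and 3.8 in OA. The groups did not overlap, with DNL highest and OA lowest. PKLR rose 2.1-fold in DNL (log2 fold change 1.07, SE 0.114, adjusted p = 4.51e-06) and fell 2.3-fold in OA (log2 fold change -1.20, SE 0.129, adjusted p = 3.62e-06). The log2 ratio of PKM to PKLR was 5.07 in WT, 5.31 in DNL and 7.26 in OA (adjusted p = 0.00786, exact permutation). PKLR made up 2.42% ± 0.214 of pyruvate kinase TPM in WT, 2.06% ± 0.0166 in DNL and 0.539% ± 0.0984 in OA. The counts are per gene, so the PKM splice forms were not told apart.

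In DNL the lactate stage had LDHA higher, SLC16A3 lower and SLC16A1 not called, where 27.1% of every gene tested rose and 26.8% fell. In OA these 3 were lower than in WT, a call that 29.7% of every gene tested also received. LDHA, part of whose promoter window is shown above (gene on chromosome 11, 18394388 to 18408425), was at 288, 304 and 294 CPM in WT, 749, 763 and 806 in DNL and 254, 252 and 256 in OA. DNL lay far above WT, and OA below it, with no overlap. LDHA rose 2.62-fold in DNL (log2 fold change 1.39, SE 0.0388, adjusted p = 1.68e-11) and fell in OA (log2 fold change -0.22, SE 0.0389, adjusted p = 0.000348). LDHB, the subunit common in heart, was at 0 in all WT and DNL libraries and at 0, 0.264 and 1.31 CPM in OA replicates 1, 2 and 3. Its 19 counts in OA, in replicates 2 and 3 only, gave a pooled level of 0.369 CPM. That level was 12.35 times a floor of 3 counts over the WT group and 8.81 times the same floor in DNL. Without OA replicate 3, an alternative added after seeing the data, 8 counts remained and the multiples were 6.2 and 4.4. The floor covers counting error in WT and DNL only. The OA level carries no error here, and pooling leaves out the spread among the OA libraries, so these multiples are not lower bounds. The library order was again that of COL1A1, whose part was not tested. The ratio of LDHB to LDHA is set by the pseudocount where LDHB is at 0 and is not read.

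SLC16A1 (MCT1) and SLC16A3 (MCT4), the lactate transporters, did not rise in either comparison. SLC16A3, the form typical of glycolytic cells, was at 376, 362 and 384 CPM in WT, 309.6, 325 and 345 in DNL and 339, 309 and 306 in OA. Both treated groups lay below WT and overlapped each other. SLC16A3 fell by 0.20 on the log2 scale in DNL (adjusted p = 0.00525) and by 0.23 in OA (adjusted p = 0.00141). SLC16A1 was at 259, 248 and 249 CPM in WT, 231, 228 and 249.99 in DNL and 234, 228 and 221 in OA. It was lower in OA than in WT (log2 fold change -0.15, adjusted p = 0.0108), a call lost under library totals (adjusted p = 0.155) and without WT replicate 1 (0.0591). In DNL, SLC16A1 was not called (log2 fold change -0.09, adjusted p = 0.0902). Library totals called it lower there (-0.26, adjusted p = 0.00035), as did the fit without DNL replicate 3 (-0.136, adjusted p = 0.0212). The ratio of the transporters did not pass the permutation test (adjusted p = 0.106). Their chaperone BSG (basigin) rose from 354 ± 7.68 to 536 ± 15.7 CPM in DNL (adjusted p = 2.5e-08). MPC1, a subunit of the mitochondrial pyruvate carrier, fell from 66.1 ± 2.53 CPM in WT to 54.98 ± 2.03 in DNL (adjusted p = 0.00943) and 27.2 ± 3.27 in OA (adjusted p = 2.5e-08), and its partner MPC2 fell by 0.51 on the log2 scale in OA (adjusted p = 0.000578). Of 7 tested partners of pyruvate and lactate handling, 2 were higher and 2 lower in DNL (28.6% each, near the 27.1% and 26.8% of all genes), and 1 was higher and 4 lower in OA (14.3% and 57.1%, against 30.4% and 29.7%).

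No member of the pentose phosphate stage was called at 2-fold or more in any of the 3 comparisons. Such calls were a minority of all genes too (12.3% in DNL against WT, 16.8% in OA against WT and 20.1% in DNL against OA). In DNL, 2 of 6 genes were higher (PGD and RPE), 2 lower (RPIA and TALDO1) and 2 not called. These shares, 33.3% each, were near the 27.1% higher and 26.8% lower of all genes. In OA, 3 were higher (PGD, RPE and TKT) and 3 not called, with 50% higher against 30.4% of all genes. PGD, phosphogluconate dehydrogenase, which makes NADPH in the oxidative branch, was at 181, 179 and 179 CPM in WT, 264, 249.8 and 252 in DNL and 234, 233 and 235 in OA. Both treated groups lay above WT, and DNL above OA. PGD rose 1.42-fold in DNL (log2 fold change 0.51, SE 0.0364, adjusted p = 1.12e-07) and 1.3-fold in OA (log2 fold change 0.38, SE 0.0368, adjusted p = 1.37e-06). The small difference between DNL and OA (0.12 on the log2 scale, adjusted p = 0.00967) turned to -0.11 under library totals (adjusted p = 0.0176), so its direction depends on the scaling. PGLS, the lactonase of the same branch, was at 25.02, 23.8 and 24.4 CPM in WT, 23.5, 23.7 and 20.5 in DNL and 19.8, 20.5 and 7.48 in OA. The OA value of replicate 3 lay far below the others, and PGLS was not called in OA with all libraries (log2 fold change -0.56, adjusted p = 0.112) but was without that replicate (-0.28, adjusted p = 0.0249).

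The remaining pentose phosphate genes belong to the non-oxidative branch, which links ribose phosphate back to glycolysis. RPE, the epimerase, was at 78.3, 74.6 and 78.3 CPM in WT, 104, 95.01 and 102 in DNL and 95.5, 81.9 and 88.6 in OA. It rose 1.3-fold in DNL (adjusted p = 0.000175) and 1.15-fold in OA (adjusted p = 0.0152), and the OA call was lost without OA replicate 1 or WT replicate 2 (adjusted p = 0.0667 and 0.0678). RPIA, the isomerase, fell by 0.21 on the log2 scale in DNL (adjusted p = 0.0487), from 32.3 ± 1.2 to 28.02 ± 2.18 CPM. That call was lost in 9 of 17 alternatives, with the adjusted p reaching 0.182. TKT, transketolase, was at 234, 229 and 228 CPM in WT, 199.5, 259 and 235 in DNL and 257, 276 and 280.02 in OA. DNL spread around WT, and OA lay above WT (log2 fold change 0.23, adjusted p = 0.0217), a call lost without OA replicate 2 or 3 or WT replicate 2 or 3 (adjusted p = 0.0713, 0.0678, 0.0625 and 0.0648). TALDO1, transaldolase, was at 113, 107 and 108 CPM in WT, 99.8, 99.00 and 93.3 in DNL and 108, 106 and 111 in OA. It fell by 0.16 on the log2 scale in DNL (adjusted p = 0.0114), a call lost without WT replicate 1 (adjusted p = 0.0746), and WT and OA overlapped. Between DNL and OA, the calls of TKT (log2 difference -0.23, adjusted p = 0.0221) and RPE (0.18, adjusted p = 0.0221) came from values that overlapped, and each was lost in 3 of the fits that left out 1 replicate, and under library totals RPE turned to -0.05.

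**Figure D4:**
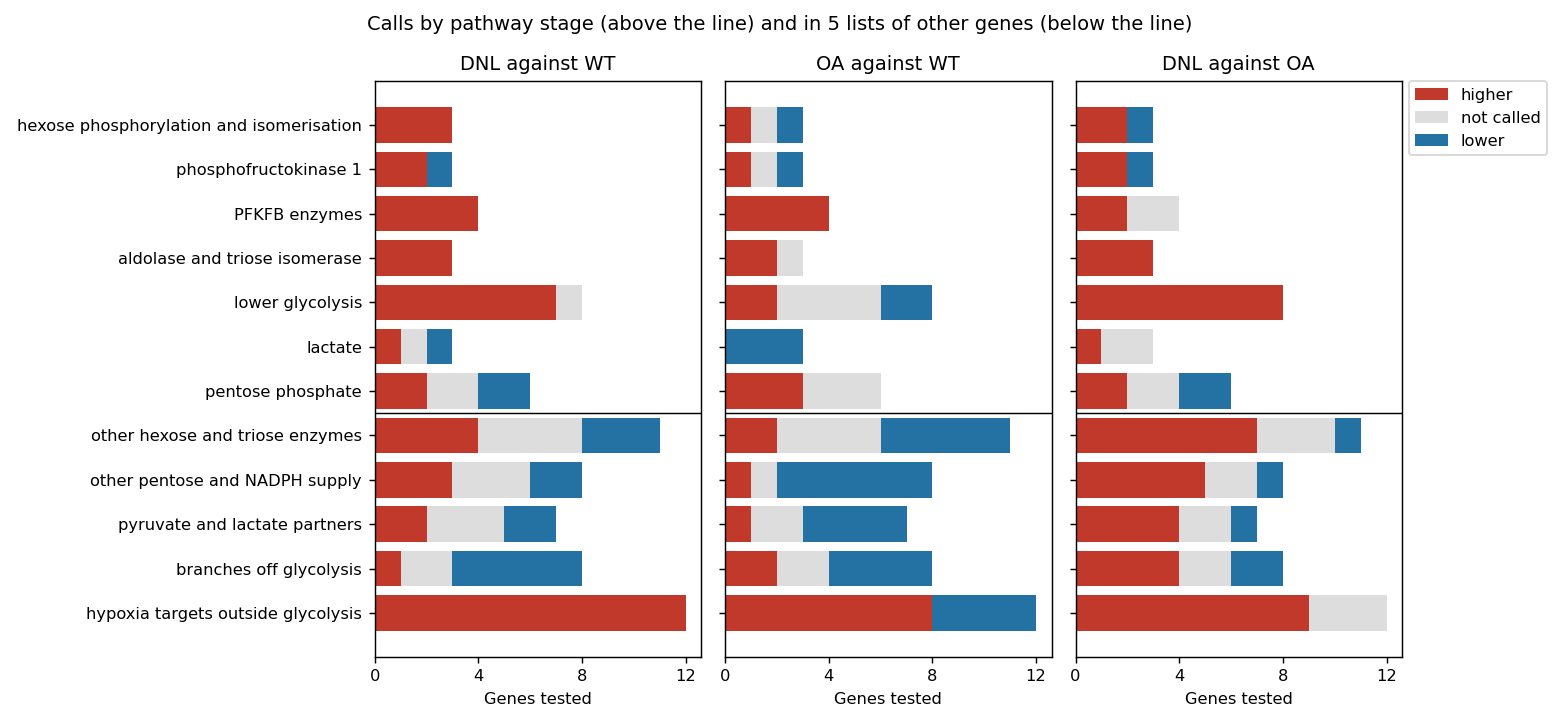
Number of tested genes (x axis) called higher (red), called lower (blue) or not called (grey) in each pathway stage (y axis, above the line) and in 5 lists of related genes (below the line), for the 3 comparisons. In DNL against WT the glycolytic stages are nearly all red, with 7 of 8 lower-glycolysis genes higher, while the lactate stage is wholly blue in OA against WT with 3 of 3 lower. Over all genes tested, 27.1% were higher in DNL and 29.7% lower in OA against WT.

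Several of these genes have pseudogenes named after them, whose sequences were not compared here. GENCODE release 29 names 110 pseudogenes after 14 of the members, of which 62 belong to GAPDH and 13 to PGAM1, and 14 members overlap another protein-coding gene. The table listed almost only protein-coding genes (19217 of 19317), and whether the counting used strand is not given in the sources used here. How any reads shared with such pseudogenes or neighbours were assigned is therefore uncertain for these members.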

How the data were processed

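RNA of 9 HepG2 samples was extracted with a spin-column kit and sequenced as ribosome-depleted, stranded total RNA, per the labels' protocols. The deposited values are estimated counts per gene that the authors made with kallisto 0.48.0 on GRCh38 after FastQC 0.11.9 (per the submitters' processing notes). For the annotation release and strand setting, the sources used here give nothing. Counts were rounded to whole numbers, filtered with filterByExpr, scaled by TMM and fitted over all 9 samples with edgeR 4.0.16 (robust quasi-likelihood test, R 4.3.3), with Benjamini-Hochberg adjustment over 13636 genes and calls at 0.05. The coefficient of variation between replicates was 10.6%, and 3 counts, the limit a count of 0 allows, were 0.0697 to 0.383 CPM per library, counting error only. SE is the size of the log2 fold change divided by the square root of F. TPM used transcript lengths of GENCODE release 29, in which 19217 of 19317 genes had a length. Isozyme ratios used counts with a pseudocount of 0.5. Members and gene lists were chosen with earlier results of these data known, and lists are described by counts and medians only. All members are named, and from each other list at most 2 genes per direction and comparison with the smallest adjusted p. Alternatives were RLE scaling, library totals, no filter, a minimum of 5 CPM, DESeq2 1.42.0, limma 3.58.1 (voom), fits of 2 groups, a replicate block, a ratio pseudocount of 2 and leaving out each replicate. The fit was tested on simulated counts with known changes.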

Additional observations from a re-analysis of the deposited data

How the results depend on the processing

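Most calls held: 23 of the 26 members called in DNL against WT kept direction and call under all alternatives in which they were tested (17, or 16 for PFKM, which the 5 CPM minimum removed), as did 16 of 20 in OA against WT and 18 of 24 in DNL against OA. Leaving out 1 replicate at a time gave 24 to 26, 17 to 21 and 21 to 24 called members. Lower members in DNL against OA numbered 8 with library totals and 2 to 4 with 1 replicate left out, the 2 coming without OA replicate 3, and in DNL against WT 2 to 4, the 2 coming without WT replicate 1. With library totals, DNL against OA turned to -0.13 for PFKFB3, -0.18 for SLC16A1, -0.19 for SLC16A3, -0.11 for PGD and -0.0519 for RPE on the log2 scale. With the same scaling, TKT in DNL against WT came to -0.16, and OA against WT came to 0.0355 for GPI, 0.0401 for PFKM, 0.0611 for GAPDH and 0.0541 for TALDO1. These members were near 0 in the comparison named, PGD and RPE apart, and the cause was not tested. GAPDH in OA against WT was 0.017 with RLE scaling, 0.017 with DESeq2, 0.0005 with the 5 CPM minimum, 0.0108 in a fit of the 2 groups alone and -0.0383 to 0.0365 with 1 replicate left out. TALDO1 in OA against WT was 0.0098, 0.0067 and 0.004 with RLE scaling, DESeq2 and the 2 groups alone, and -0.0348 to 0.0166 with 1 replicate left out. TKT in DNL against WT was -0.0056 without the filter, -0.0255 with voom and -0.0728 to 0.11 with 1 replicate left out. ENO3 in DNL against WT was 0.0007 with DESeq2 and -0.25 to 0.15 with 1 replicate left out. With 1 replicate left out, PFKM in OA against WT ranged from -0.33 to 0.36, and DNL against OA ranged from -0.0009 to 0.0897 for SLC16A3, from -0.0309 to 0.20 for PFKFB3 and from -0.0966 to 0.0212 for RPIA. Same-numbered replicates did not deviate together (correlation of deviations -0.0176 to 0.0534, 0 of 9 pairs over 0.1). The labels do not say whether they shared a culture or a run, and these correlations cannot show that they did not. A fit with the replicate number as a block called 25, 20 and 24 members in the 3 comparisons, with TKT at -0.0043 in DNL against WT and PFKM at 0.0115 in OA against WT, and only RPIA lost its call (adjusted p = 0.0694). For the ratios, the replicate block leaves 216 permutations, and DNL minus WT stayed at -1.79 for HK2 to HK1, -2.12 for PFKP to PFKL, 0.50 for PFKFB4 to PFKFB3, 2.09 for ALDOC to ALDOA, 0.24 for PKM to PKLR and -0.86 for LDHB to LDHA (each adjusted p = 0.0509, permutation), 1.92 for PFKFB3 to PFKFB2 (0.102) and 0.58 for ENO2 to ENO1 (0.0873), so that no ratio passed with so few permutations. LDHB is at 0 in every WT and DNL library, so its ratio to LDHA is set by the pseudocount and is printed for completeness, not read. With 1 replicate left out, DNL minus WT ranged from -1.17 to -0.63 for LDHB to LDHA, from -0.81 to -0.41 for ENO3 to ENO1 (called without DNL replicate 2, adjusted p = 0.048, permutation), from 0.27 to 0.65 for PFKFB4 to PFKFB3 and from 0.41 to 0.98 for PFKM to PFKL, whose OA minus WT value turned to -0.01 without OA replicate 3. The floor of 3 counts was highest in OA replicate 3, at 0.383 CPM.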

Other observations

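Genes that lead sugar into or out of glycolysis outside its main line moved in several directions. Of 11 tested enzymes of hexose and triose handling, 4 were higher and 3 lower in DNL against WT (27.1% and 26.8% of all genes), and 2 were higher and 5 lower in OA against WT (30.4% and 29.7%). HKDC1, a hexokinase-like gene that neighbours HK1 on chromosome 10, was at 112, 105 and 108 CPM in WT, 81.8, 77.8 and 79.5 in DNL and 167, 199 and 181 in OA. It fell by 0.44 on the log2 scale in DNL (adjusted p = 4.57e-05) and rose 1.69-fold in OA (adjusted p = 2.35e-07), with no overlap between groups. GCKR, the regulator of the liver glucokinase, fell 2.72-fold in OA, from 37.9 ± 2.3 to 14.1 ± 1.9 CPM (adjusted p = 7.23e-08). TKFC, a kinase of fructose breakdown, fell 2.08-fold in OA (adjusted p = 5.91e-10) and rose 1.32-fold in DNL (adjusted p = 3.95e-06).

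Of 8 tested genes in branches that leave glycolysis, 1 was higher and 5 lower in DNL (12.5% and 62.5%, against 27.1% and 26.8% of all genes). In OA, 2 were higher and 4 lower (25% and 50%, against 30.4% and 29.7%). AKR1B1, the aldose reductase that turns glucose into sorbitol, was at 20.6, 19.8 and 17.6 CPM in WT, 32.7, 35.2 and 34.9 in DNL and 78.6, 75.2 and 82.3 in OA. It rose 1.77-fold in DNL (adjusted p = 9.07e-07) and 4.05-fold in OA (adjusted p = 1.96e-10). GPD1, which makes glycerol phosphate from a triose phosphate, was at 78.8, 81.7 and 84.6 CPM in WT, 19.1, 18.7 and 17.7 in DNL and 10.5, 14.8 and 10.7 in OA, and fell 4.41-fold and 6.57-fold (adjusted p = 2.68e-09 and 5.27e-10). PSAT1, a serine synthesis enzyme, fell 2.86-fold in OA, from 780.3 ± 6.81 to 273 ± 7.21 CPM (adjusted p = 7.26e-12). GFPT1, the entry enzyme of hexosamine synthesis, fell 1.99-fold in DNL, from 625 ± 6.57 to 314 ± 15.8 CPM (adjusted p = 1.74e-09). Of 8 tested genes of other pentose reactions and NADPH supply, 3 were higher and 2 lower in DNL (37.5% and 25%, against 27.1% and 26.8%). In OA, 1 was higher and 6 lower (12.5% and 75%, against 30.4% and 29.7%). H6PD, the dehydrogenase of the endoplasmic reticulum that feeds NADPH there, rose from 149 ± 10.7 to 219 ± 5.45 CPM in DNL (adjusted p = 5.11e-06) and fell to 47.3 ± 3.31 in OA (adjusted p = 3.59e-10). IDH1, a cytosolic source of NADPH, fell from 515 ± 10.2 to 275 ± 6.51 CPM in OA (adjusted p = 8.93e-10).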
